A study of Mus musculus with 4 samples.

Results

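The genes described here are 30 known targets of the hypoxia-inducible factors (HIFs) that lie outside glycolysis, glucose uptake and the carbonic anhydrases. They were chosen by name as known targets, with no threshold on a measured value but with earlier results of these data known, and all 30 have a row among the 23875 genes of the deposited table. The RNA came from ID8 mouse ovarian cancer cells of the C57BL/6 strain, labelled as wild type. ID8-P0 is the line as transformed from ovarian surface epithelium in culture, and ID8-PW2 was derived from it by 2 passages through C57BL/6 mice and taken from tumors of the peritoneal wall. By the study's methods ID8-P0 carries GFP and luciferase, and ID8-PW2 is 1 derived cell line. Each line gave 2 libraries, from cells held in suspension on a non-adhesive surface for 24 h.

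The levels below are the authors' means over all 4 libraries. The 4 columns of counts in the table carry names that no sample label uses, so no library and neither line could be given a value of its own, and the authors' own fold changes and p-values were not used. What follows is therefore how strongly each HIF target was expressed across this pair of lines and what its promoter holds. The spread between libraries that the authors estimated for it is given as well. Whether a gene was higher in ID8-PW2 or in ID8-P0 is not reported, and a mean can rest mostly on either line. Depth per library is not given here either, for the same reason.

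HIFs are pairs of an oxygen-sensitive alpha subunit and the stable partner ARNT. When oxygen is plentiful, prolyl hydroxylases of the EGLN family mark the alpha subunit, and the VHL ubiquitin ligase has it degraded. When oxygen falls the alpha subunit persists, enters the nucleus with ARNT and binds DNA at hypoxia response elements, whose core reads ACGTG or GCGTG. Targets outside glycolysis turn mitochondria down, harden collagen, open chromatin, adjust growth and send signals to vessels, and several of them also answer to other stress pathways.

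The ACGTG core was common in the promoters of these genes, which were chosen as known HIF targets. A higher share than in other genes may therefore partly be a matter of how the list was drawn up. RefSeq promoters on GRCm38.p6, each running from 250 bases before to 50 bases after a start of transcription, were at hand for 21 of the 30 genes, and 5 of those have more than 1 start, which gave 30 promoters. No entry was at hand for Angptl4, Bhlhe40, Bnip3l, Kdm4b, Lox, Loxl2, Ndrg1, Ndufa4l2 and Plod2. ACGTG on either strand lay in 14 of the 30 promoters (46.7%) and in at least 1 promoter of 12 of the 21 genes. The same letters were found in 25.4% of 11284 promoters of expressed coding genes, those averaging 1 CPM or more (CPM is a gene's reads scaled to a common library total), and in 19.6% of all 32851 promoters. GCGTG was found in 70.0% of the genes' promoters, in 51.1% of those of expressed coding genes and in 32.4% of all.

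Both motifs hold a CpG, and the HIF target promoters were rich in CpG. Their median was 25.5 CpG dinucleotides per 300 bases, against 21 in promoters of expressed coding genes and 7 over all promoters. Among promoters with at least 20 CpG, ACGTG lay in 14 of 23 of the HIF targets (60.9%) and in 29.5% of 6082 of expressed coding genes. The 7 HIF target promoters with fewer CpG held none, a range of CpG in which 14.6% (under 10 CpG) and 25.02% (10 to 19 CpG) of expressed coding promoters did. Neighbouring starts of Ak4, Kdm3a and Mxi1 share bases, so the 30 promoters are not independent, and these shares are a description without a test.

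Stretches around the ACGTG match nearest to the start are printed for 7 genes because they show how the core sits at different distances in genes of different roles. Capitals mark the match, which reads CACGT where it lies on the opposite strand and CACGTG where matches on both strands overlap.
P4ha1: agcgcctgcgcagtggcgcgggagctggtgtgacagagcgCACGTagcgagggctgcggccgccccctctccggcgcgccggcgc
Ankrd37: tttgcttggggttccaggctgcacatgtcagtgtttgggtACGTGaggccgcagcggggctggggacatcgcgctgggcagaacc
Ero1l: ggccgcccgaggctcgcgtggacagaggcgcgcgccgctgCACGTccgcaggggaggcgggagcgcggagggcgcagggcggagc
Fam162a: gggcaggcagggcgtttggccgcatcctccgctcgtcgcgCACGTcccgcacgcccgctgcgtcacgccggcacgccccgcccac
Pfkfb3: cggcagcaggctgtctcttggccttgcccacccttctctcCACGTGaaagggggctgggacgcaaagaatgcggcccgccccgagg
Bnip3: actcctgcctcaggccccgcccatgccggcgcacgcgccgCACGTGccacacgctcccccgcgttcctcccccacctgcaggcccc
Ddit4: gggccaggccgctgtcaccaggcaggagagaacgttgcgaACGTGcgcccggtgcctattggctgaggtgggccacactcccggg

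In P4ha1, a subunit of the enzyme that hydroxylates proline in collagen, the match lay from base -16 to base -12 before the start (chr10:59323240-59323324, plus strand). In Ankrd37, an ankyrin-repeat protein, the nearer of its matches lay from -6 to -2 (chr8:45999812-45999896, minus strand) and the other from -241 to -237. Ero1l, the oxidase that restores disulfide-forming capacity in the endoplasmic reticulum, had its match from -63 to -59 (chr14:45318591-45318675, minus strand), and Fam162a, a mitochondrial protein with a part in cell death under hypoxia, from -81 to -77 (chr16:36071598-36071682, minus strand). The palindrome CACGTG, which is also the E-box bound by MYC, USF and other factors, was present at Pfkfb3 from -53 to -48 (chr2:11502098-11502183, minus strand) and at Bnip3 from -108 to -103 (chr7:138909569-138909654, minus strand). Ak4, whose stretch is not printed, also held CACGTG, from -214 to -209 at 1 of its 4 starts. That site lies downstream of its other starts, whose windows held no ACGTG. Ddit4 had its match farther out than the others printed, from -187 to -183 (chr10:59951913-59951997, minus strand).

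Of 16 matches in all, 14 lay before the start of their own promoter and 9 of these within 100 bases of it. Mxi1 held a match at 2 of its 3 starts, which lie downstream of its first start. The matches after the start were those of Higd1a, from 44 to 48, and the second of P4ha2, from 11 to 15. Adm, Ccng2, Gbe1, Gys1, Kdm3a, Pdk1, Pfkfb4, Plod1 and Stc2 had no ACGTG in these windows. Of these, Adm, Ccng2, Kdm3a, Pdk1, Pfkfb4, Plod1 and Stc2 held GCGTG, and Gbe1 and Gys1 held neither form. Among the 21 genes the most abundant per kb, Ero1l, and the least abundant, Ak4, each held 1 match.

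**Figure D1:**
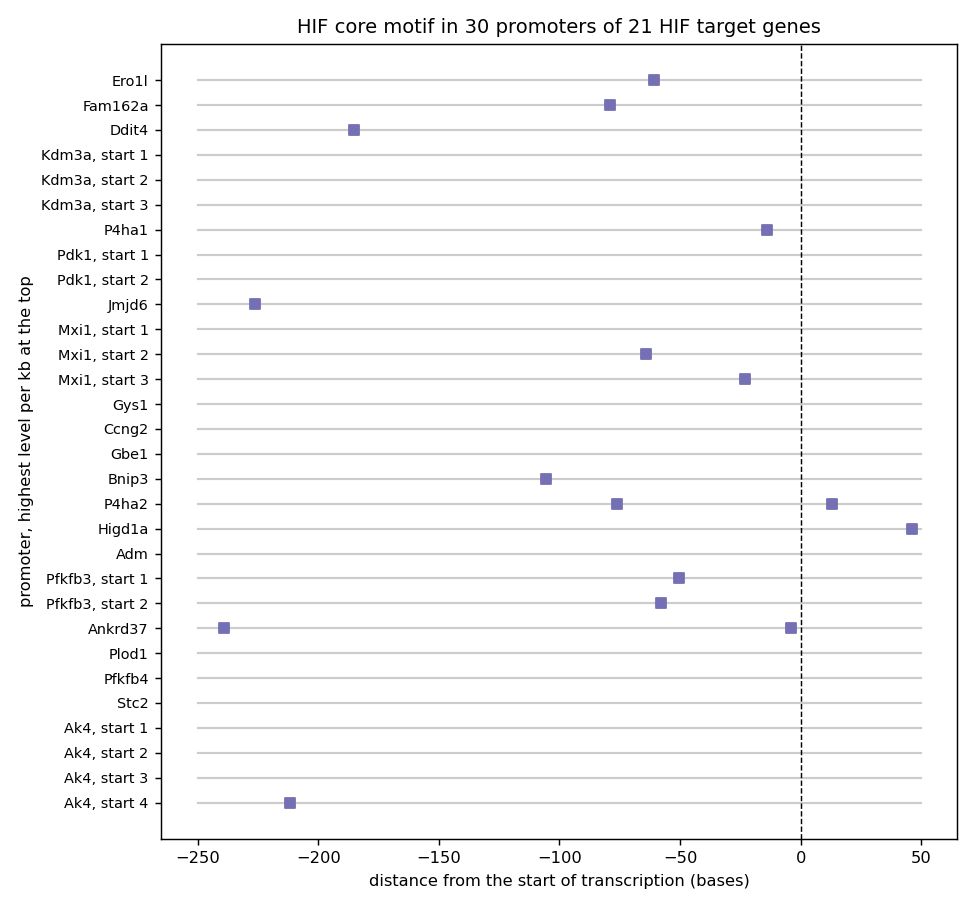
Position of the ACGTG core (squares, either strand) in 30 RefSeq promoters of 21 HIF target genes, by distance in bases from the start of transcription (dashed line), with the gene of the highest level per kb at the top. The 16 squares fall in 14 promoters. Of the squares, 14 lie before the start, in windows of 250 bases before and 50 after it.

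As a group, the HIF targets were well expressed in suspended ID8 cells. A mean of 1 CPM or more was reached by 28 of the 30 (93.3%), against 51.2% of all genes listed. All 30 code for protein, whereas the genes listed include non-coding ones, so the shares are not like for like. The share among coding genes alone is not given here. Their median level was 71.9 CPM, while that of the 12214 expressed genes was 18.1 CPM. Above 100 CPM stood 10 genes, from 10 to 100 CPM 15, from 1 to 10 CPM 3 and under 1 CPM 2. Divided by the exon length of each gene, which allows genes to be compared, their median was 14.0 CPM per kb, against 4.08 for 11590 protein-coding genes of at least 1 CPM. On that scale 26 of the 30 lay above the median coding gene and 11 in the top 10% of coding genes. Well-known targets are often abundant genes that were easy to study, so their high levels may partly be a matter of how the list was drawn up. In bulk RNA of this kind, fewer cells that express a gene and less RNA per cell cannot be told apart.

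The range within the group was wide. Ndrg1 was the highest at 172 CPM per kb and Ak4 the lowest at 0.0694, close to the lowest level that the table holds. Ndrg1 and Ero1l together made up 45.4% of the summed CPM of the 30 genes, and all 30 made up 0.383% of the total.

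**Figure D2:**
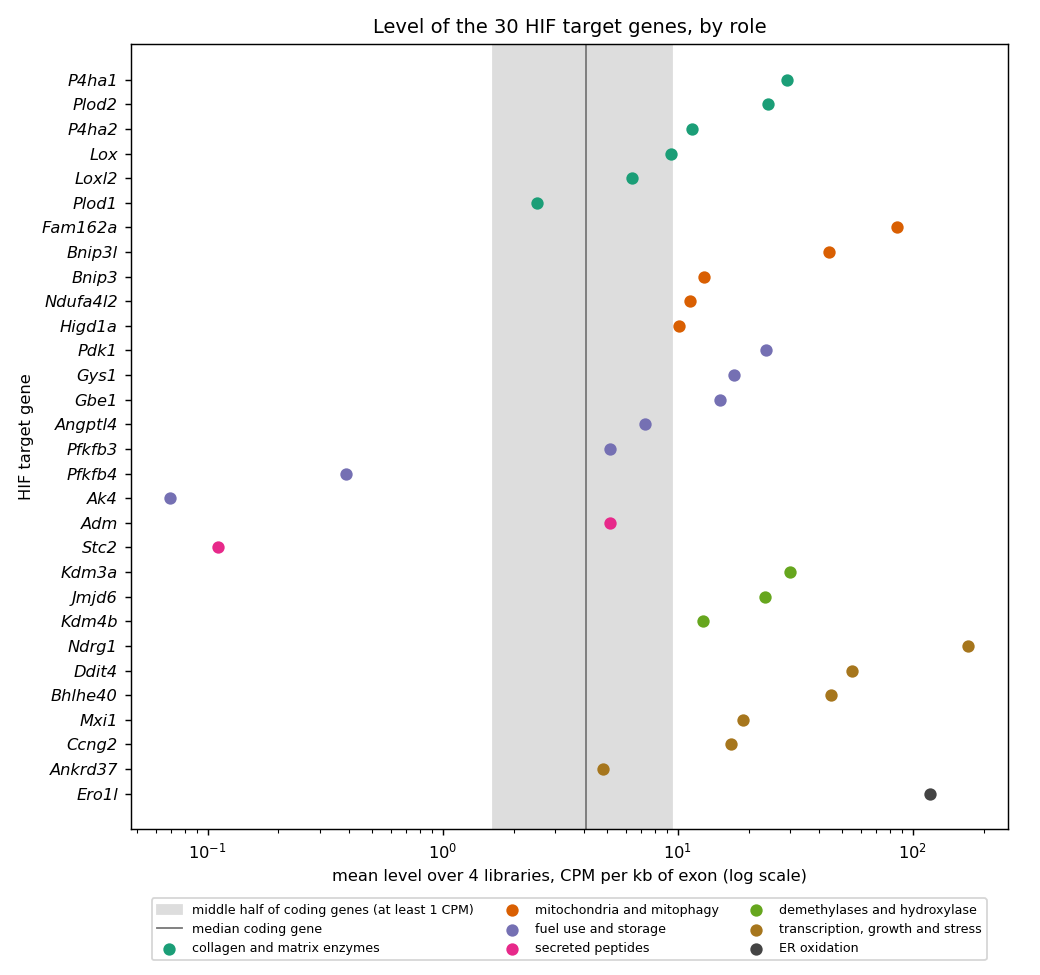
Mean level over 4 libraries of each HIF target in CPM per kb of exon (log axis), grouped by role, each point being 1 gene with no error because the table gives 1 mean per gene. The grey band spans the percentiles 25 to 75 of expressed coding genes, from 1.64 to 9.48 CPM per kb, and 26 of 30 points lie right of the line at their median of 4.08.

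Among enzymes that shape collagen, P4ha1 and Plod2 led. P4ha1 had a mean of 119.6 CPM (29.1 CPM per kb) and P4ha2, its alternative catalytic subunit, 71.3 CPM (11.4 CPM per kb). Plod2, the lysyl hydroxylase of the collagen telopeptides, had 131 CPM (24.3 CPM per kb), and Plod1, which acts on the helical part, 17.0 CPM (2.51 CPM per kb). Plod1 was thus 0.103 of Plod2 per kb and the only enzyme of the 6 under the median coding gene. Lox and Loxl2, secreted oxidases that start the cross-links, had 44.5 CPM (9.32 CPM per kb) and 34.7 CPM (6.41 CPM per kb).

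Genes grouped under mitochondria and mitophagy were all above 10 CPM per kb. That group leaves out Ak4, a mitochondrial enzyme placed with fuel use, at 0.0694 CPM per kb. Fam162a stood out with 72.5 CPM on a short transcript, 85.3 CPM per kb, behind Ndrg1 and Ero1l only. The mitophagy receptors differed, with 169 CPM (43.8 CPM per kb) for Bnip3l and 29.4 CPM (13.0 CPM per kb) for Bnip3, a ratio of 3.37 per kb. Higd1a, which helps respiratory complexes to form and to endure low oxygen, had 30.7 CPM (10.1 CPM per kb). Ndufa4l2, a relative of a cytochrome oxidase subunit that lowers mitochondrial activity, had 12.3 CPM (11.3 CPM per kb). Ndufa4l2 lies on chromosome 10 from 127514939 to 127517152 and overlaps Shmt2 on the opposite strand, which had 14.9 CPM.

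Genes of fuel use and storage spanned the widest range of any role. Pdk1, the kinase that shuts pyruvate dehydrogenase and so keeps pyruvate out of mitochondria, led with 184 CPM (23.6 CPM per kb). Gys1 and Gbe1, glycogen synthase and the glycogen branching enzyme, had nearly equal levels of 82.6 and 80.8 CPM (17.3 and 15.1 CPM per kb). Angptl4, a secreted inhibitor of lipoprotein lipase, had 25.7 CPM (7.26 CPM per kb). Of the enzymes that set fructose 2,6-bisphosphate, the activator of phosphofructokinase, Pfkfb3 had 38.8 CPM (5.13 CPM per kb) and Pfkfb4 1.89 CPM (0.387 CPM per kb). Ak4, an adenylate kinase of the mitochondrial matrix, had 0.322 CPM, 1.98 times the table's lowest value of 0.163 CPM, at which 4561 genes stand. Ak4 RNA was therefore hardly above the floor of these means.

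The secreted factors were a moderate and a scarce transcript. Adm, the precursor of the vessel-relaxing peptide adrenomedullin, had 8.34 CPM (5.15 CPM per kb), above the median coding gene. Stc2, a glycoprotein hormone that is also a target of the ATF4 stress response, had 0.575 CPM (0.111 CPM per kb).

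The oxygen-dependent chromatin and protein modifiers were high throughout. Kdm3a, which removes methyl groups from lysine 9 of histone H3, had 247 CPM (30.05 CPM per kb), Jmjd6, a lysyl hydroxylase of splicing factors, 111 CPM (23.6 CPM per kb), and Kdm4b, another histone demethylase, 62.8 CPM (12.8 CPM per kb). These enzymes need oxygen themselves, as do the collagen hydroxylases.

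Regulators of transcription, growth and stress had a median of 31.9 CPM per kb. Ndrg1, a stress-responsive protein that restrains growth and spread in many tumors, had 1135 CPM and ranked at 42 of all genes listed. Ero1l, the oxidase of the endoplasmic reticulum, followed with 623 CPM (118 CPM per kb) and ranked at 100. Ddit4, the inhibitor of mTORC1 also known as REDD1, had 96.3 CPM (54.9 CPM per kb), and Bhlhe40, a transcriptional repressor, 211 CPM (44.8 CPM per kb). Mxi1, which opposes MYC at E-boxes, had 129 CPM (18.9 CPM per kb), and Ccng2, a cyclin that slows the cell cycle, 92.0 CPM (16.9 CPM per kb). Ankrd37 was far below them with 7.39 CPM (4.80 CPM per kb), and it overlaps Ufsp2 on the opposite strand, which had 18.7 CPM.

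A spread between libraries of the same line does not show how far a mean over both lines holds for either line. The deposited dispersion, whose square root is the biological coefficient of variation (BCV), is an estimate by edgeR of spread between libraries. Which estimate it is was not stated. Unrelated genes near the floor share a value (Stc1 and Gys2, 73.6% each), so it is not a spread measured gene by gene. For the 25 HIF targets over 10 CPM the BCV ran from 6.01% to 14.4% with a median of 8.57%, and 16 of the 25 lay above 7.84%, the median of 7701 coding genes over 10 CPM. Ccng2 at 6.01% and Kdm4b at 6.37% had the lowest values. Jmjd6 had the largest value of the 25 at 14.4%, above that of 98.3% of coding genes over 10 CPM, although its level of 111 CPM is high. Jmjd6 overlaps Mettl23 on the opposite strand (16.0 CPM), and whether reads of either gene bear on this spread was not tested. Plod1 (13.6%), Gbe1 (12.1%), Loxl2 (11.8%) and Lox (11.7%) also lay above 90% of those genes. Of the genes under 10 CPM, Ankrd37 had 13.7%, below Jmjd6, while Adm had 18.5%, Pfkfb4 21.2%, Stc2 25.8% and Ak4 40.8%. The sample labels give lane 3 for both ID8-P0 libraries and lanes 4 and 8 for those of ID8-PW2. Duplicates thus differ in lane in 1 line only, and the part of lane in these values was not tested.

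**Figure D3:**
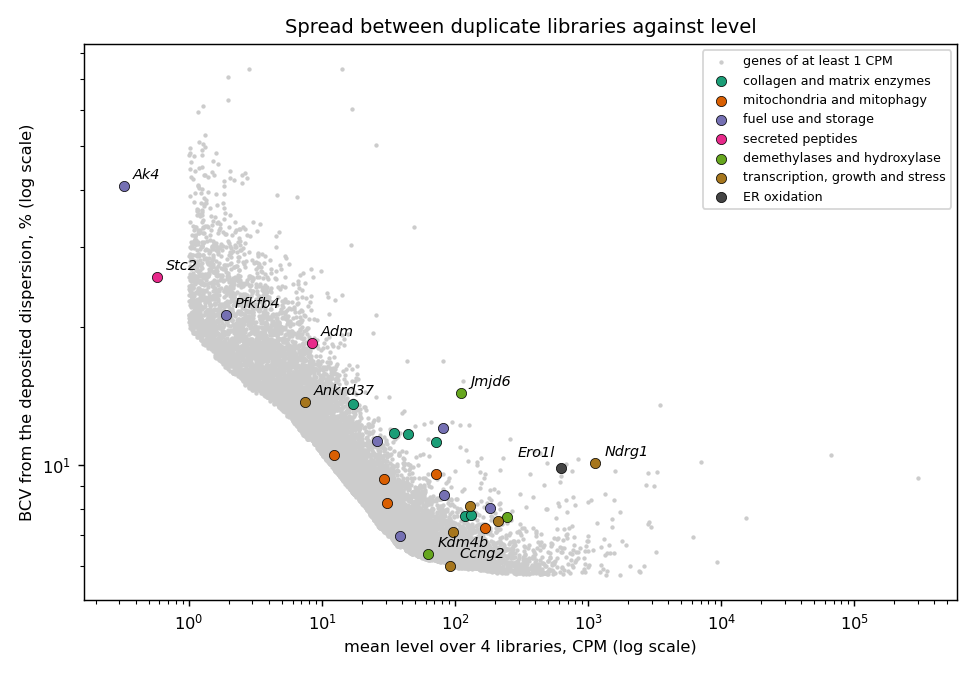
BCV in percent, from the deposited dispersion, against mean level in CPM over 4 libraries, both on log axes, for genes of at least 1 CPM (grey) and the 30 HIF targets (coloured by role). The BCV falls with level, and Jmjd6, at 111 CPM and 14.4%, stands above most genes of more than 10 CPM.

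Beside the relatives listed for them, 16 of 26 HIF targets were the most abundant of their family per kb of exon. Counted by family, a HIF target of the list was the most abundant in 16 of 20. The families were picked by hand and may lack relatives, and several are pairs or hold more than 1 listed target. No share over other gene families is at hand, so these counts are a description. The BNIP3 pair holds only listed targets, and of the 19 others a listed target led in 15. Among these 15 is the stanniocalcin pair, in which neither Stc2 (0.575 CPM) nor Stc1 (0.183 CPM) reached 1 CPM. P4ha1 and P4ha2 stood above P4ha3, the third subunit gene, which had 1.63 CPM per kb. Ndrg1 stood at 172 CPM per kb and its next relative Ndrg3 at 3.46, a ratio of 49.7, and Ero1l was 133 times its paralog Ero1lb, which had 0.889 CPM per kb. Ddit4 was 79.2 times Ddit4l and Bhlhe40 44.3 times Bhlhe41. Kdm3a had 7.40 times the level of Kdm3b but 2.34 times that of its list mate Kdm4b, the next of its family. Gys1 was at 17.3 CPM per kb while Gys2, the liver form, was at 0.0764, near the table's lowest level. Narrower leads were those of Pdk1 over Pdk3 (23.6 against 15.7 CPM per kb), Mxi1 over Mnt (1.60 times), Lox over its list mate Loxl2 (1.45 times) and Pfkfb3 over Pfkfb2 (1.17 times). These ratios have no error, since only 1 mean per gene was used, and they rest on the exon lengths chosen.

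In the HIG1 domain, NDUFA4, adenylate kinase and cyclin G families another gene led. Ndufa4, the constitutive subunit, had 63.5 CPM per kb, and Ndufa4l2 was 0.177 of it. Ccng1, a p53 target, had 38.4 CPM per kb, and Ccng2 was 0.439 of it. Higd1a was 0.461 of Higd2a. Ak3, which also works in the matrix, had 31.8 CPM per kb, and Ak4 was the lowest of 5 adenylate kinases. The authors kept reads with up to 100 genomic hits, so reads that close paralogs or pseudogenes share may have been counted for more than 1 gene.

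**Figure D4:**
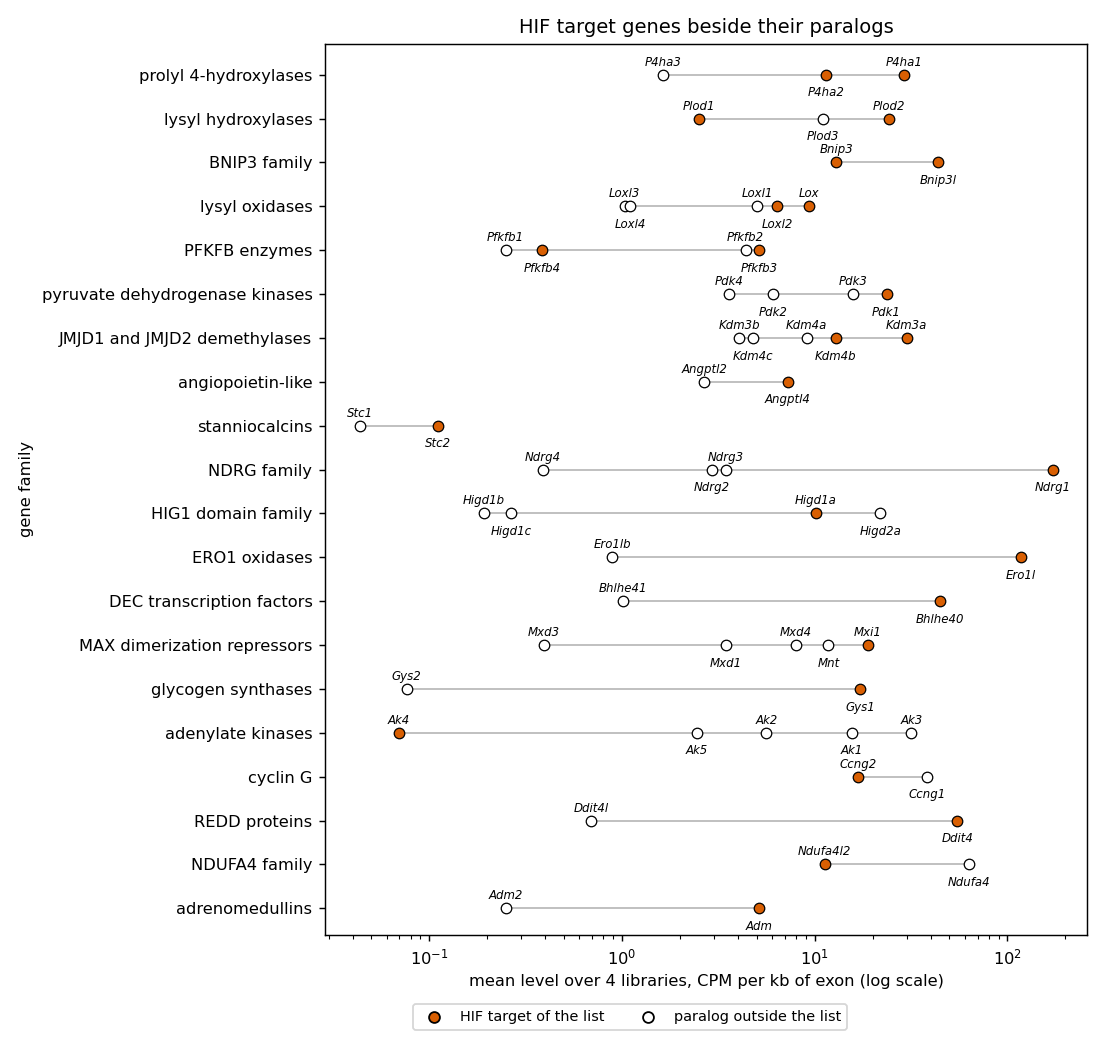
Mean level over 4 libraries in CPM per kb of exon (log axis) for 20 gene families, with HIF targets of the list filled and their paralogs open. A filled point is farthest right in 16 of the 20 families, 1 of which, the BNIP3 pair, holds filled points only.

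The machinery upstream was expressed too. All 19 of 19 listed HIF subunits, oxygen sensors and partners had at least 1 CPM, with a median of 8.31 CPM per kb. So did 31 of 34 other HIF targets, with a median of 11.2 CPM per kb. Of all genes listed, non-coding ones included, 51.2% had at least 1 CPM. The median coding gene of at least 1 CPM had 4.08 CPM per kb. Hif1a, the alpha subunit found in most tissues, had 315 CPM (53.4 CPM per kb), Epas1, which encodes HIF-2 alpha, 58.4 CPM (10.5 CPM per kb), and Hif3a 3.18 CPM (0.474 CPM per kb). Arnt had 66.6 CPM (8.31 CPM per kb), and its relative Arnt2 2.40 CPM (0.312 CPM per kb). Of the oxygen sensors, Egln3, itself a HIF target, had 341 CPM (128 CPM per kb), Egln1 197 CPM (54.7 CPM per kb) and Egln2 38.7 CPM (13.8 CPM per kb). Vhl had 29.9 CPM (9.97 CPM per kb). Among targets outside the list, Vegfa, the angiogenic growth factor, had 102 CPM per kb, between Fam162a and Ero1l, and the glycolytic enzymes Tpi1 and Aldoa had 420 and 345 CPM per kb, above every HIF target of the list. Epo, Cxcr4 and Igfbp3 were under 1 CPM.

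Markers were checked against the label of the cells. Of 8 markers of ovarian surface epithelium and mesothelium, 8 were at 1 CPM or more, led by Krt19 at 938 CPM, while Krt7 had 1.91 CPM. Of markers of host cells, leukocyte Ptprc, Lyz2 and Cd3e, endothelial Cdh5, Kdr and Tek, and adipocyte Adipoq and Plin1 were all under 0.4 CPM, though Cd68 had 13.0 CPM, Pecam1 4.62 CPM and Pdgfra 8.39 CPM. Dcn, often used for fibroblasts, had 320 CPM, while Col1a1 had 1.57 and Col1a2 0.487 CPM. The gene with the highest CPM, the lincRNA Gm26924, took up 29.7% of the total, so the CPM of every other gene is lower than it would be without it.

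The table places the 30 genes on 15 chromosomes, at most 3 on any 1. It names no genome build, but each gene lay on the same chromosome in GENCODE M21 for GRCm38, and 21 of the 30 had the same start or end there. Ndrg1, for example, lies on chromosome 15 from 66929321 to 66969640, Ero1l on chromosome 14 from 45283092 to 45318572 and Jmjd6 on chromosome 11 from 116837432 to 116843449. Overlap with another listed gene was seen for 7 of the 30, on the opposite strand for 6 and, for Loxl2, with a miRNA gene inside it.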

How the data were processed

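RNA of 2 ID8-P0 and 2 ID8-PW2 libraries was sequenced after size separation and reduction of ribosomal RNA. Per the labels and the study's methods, the authors used CASAVA 1.8.2, Trimmomatic 0.22, TopHat2 2.0.6 with Bowtie2 2.0.2 on the mouse genome, reading strand and keeping up to 100 hits per read, counted reads per gene with their own scripts and ran edgeR 3.20.8. The submitters' notes name a human build, whereas identifiers and chromosomes are mouse. The log2 CPM used here is the authors' mean over the 4 libraries, to which edgeR adds a small count, and the dispersion is a score per gene that the authors deposited from edgeR; which dispersion estimate it is was not stated. The table also holds the authors' fold change, its log2, p-value, FDR and call of direction, none of which was used. Its 4 columns of per-sample counts carry names that no label uses and were left out, so no test between the lines was run, and depth and precision per library are not given.

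CPM was 2 to the power of the log2 CPM. Exon union lengths came from GENCODE M21 by gene ID, for 23382 of 23875 genes and all 30 HIF targets. Expressed genes had a mean of at least 1 CPM. Ero1l was matched to RefSeq's Ero1a. Motifs were searched on both strands, overlapping matches counting as 1, and the last 30 bases of 30 of 30 promoters read forward in a GENCODE transcript of the gene. Motif search and exon unions were tested on simulated data. P4ha3 was added to the paralogs after the data were seen. Named are all genes of the list, their paralogs, HIF subunits and sensors, up to 8 other pathway genes and markers, and the sites printed are those nearest the start for 7 genes chosen after their values were seen. Genes, lists and tests were chosen with earlier results of these data known. An edgeR test between the lines had been intended and was not run, and levels, spread and promoters were described in its place. Python 3.11.15, numpy 2.4.6, pandas 2.3.3 and matplotlib 3.10.9 were used.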

Additional observations from a re-analysis of the deposited data

How the results depend on the processing

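No paired analysis was possible because the table's per-sample columns carry no replicate number or label, and no test between the lines was run. For the same reason the alternatives that need counts per library (DESeq2, other scaling factors, no low-count filter, a replicate block and leaving out each replicate) and those on thresholds for calls were not run. The alternatives that follow were chosen after seeing the data. Levels moved with the choice of total and length. Without Gm26924 in the totals the median of the 30 genes was 102 CPM in place of 71.9. With the longest transcript in place of the exon union the median was 20.96 CPM per kb in place of 14.0, and 26 genes again lay above the median coding gene. Among genes of at least 1 CPM it was 16.0 CPM per kb. The number of genes of at least 1 CPM stayed at 28 without Gm26924, and 25 genes reached 10 CPM. With GCGTG accepted beside ACGTG, 19 of 21 genes held a core in place of 12. Counted by promoter, 80% of theirs held either form, against 62.3% of those of expressed coding genes and 43.8% of all. With ACGTG alone, 8 genes held it between 100 bases before and 50 after the start. What limits these levels is that a mean over both lines hides any difference between them, and that Ak4 and Stc2 lie near the table's lowest value.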
